A study of Saccharomyces cerevisiae
Saccharomyces paradoxus with 24 samples.

Results

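Rap1 binding was followed at 3 promoters of genes for ribosome biogenesis, UTP4, BUD22 and REH1, while the protein was being taken out of the nucleus. The table of Rap1 ChIP-seq windows holds 1118 windows, each drawn 150 bp to either side of a called peak summit. Windows were taken for a gene when the midpoint lay between 0 and 500 bp upstream of its ORF start, which gave 1 window per gene and 3 windows in all. The promoters were chosen on their signals at 0 and 60 min, which were known. Their values at those times are therefore given as a description, and the promoters themselves were tested only on libraries from 5 to 45 min. Those libraries belong to the same time courses, so these tests are not independent of the choice.

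The experiment used the anchor-away method, in which rapamycin ties an FRB-tagged nuclear protein to an FKBP12-tagged ribosomal protein, so that export of ribosomal subunits carries the nuclear protein out of the nucleus. The data used were 16 ChIP libraries, from 2 strain isolates (JRy15237 as replicate 1 and JRy15238 as replicate 2) at 0, 5, 10, 15, 20, 30, 45 and 60 min in 7.5 µM rapamycin; the 0 min cells had 60 min in DMSO. All these cells shared the alleles Rap1(134)-FRB_2xV5, with FRB and the V5 epitope placed at residue 134 of Rap1, RPL13A-2xFKBP12::TRP1, TOR1(S1972I), fpr1::NAT, bar1delta::k.l.URA3, hmlalphadelta::UniqueHMLwithSNPs and hmrdelta::HygMX. Marker alleles of the background (ura3, trp1-1, lys2, can1-100 and forms of his3 and leu2) were common to them too. Cells of S. paradoxus strain JRy15212 carrying Rap1-2xV5, ho::HygMX and ura3::KanMXBarcode, which had seen no rapamycin, were added at 5% before immunoprecipitation, and signal here means reads falling in a window for each 1000000 S. paradoxus reads of its library. The V5 ChIP follows the tagged Rap1 alone. Input chromatin was available from the 0 min cells of both isolates.

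Rap1 is a general regulatory factor of budding yeast that binds DNA in a sequence-specific way at ribosomal protein gene promoters, at many glycolytic and other housekeeping promoters, at the silencers of the mating-type loci and along the telomere repeats. Ribosome biogenesis genes encode the factors that transcribe, cut, modify and assemble ribosomal RNA. Utp4 is a subunit of the small-subunit processome, the particle that matures 18S rRNA around the U3 snoRNA. Bud22 is also needed for 18S rRNA maturation, and Reh1 is a cytoplasmic factor of large-subunit maturation and a paralog of Rei1.

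The UTP4 window covered chromosome IV:1116812-1117112 (coordinates of the sacCer3 genome as modified for the deposited table) and overlapped no annotated gene. Its midpoint lay 199 bp before the start of UTP4, which is read from the minus strand. The same window lay 164 bp before YCG1, a condensin subunit gene read the other way, so the signal cannot be given to one gene of this divergent pair. The BUD22 window covered XIII:298562-298862, with its midpoint 156 bp before BUD22. It overlapped 90 bp of SNR72, the last gene of a cluster of 7 snoRNA genes (SNR78 to SNR72, guides for rRNA methylation) that lies between SEC59 and BUD22. The REH1 window covered XII:897723-898023, with its midpoint 201 bp before REH1, and overlapped no gene.

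Other windows lay close by, and they were named after their values had been seen. On the far side of the snoRNA cluster a window sat 1746 bp from that of BUD22, with its midpoint 228 bp before SEC59, the dolichol kinase gene. It lay between SEC59 and SNR78, the first gene of the cluster, which is read the other way. Its signal, called that of the SEC59 window below, therefore cannot be given to SEC59 alone. A window 741 bp from that of REH1 sat at RPS29A, a gene for a small-subunit ribosomal protein, with its midpoint 37 bp before the ORF. Another, 1500 bp from that of REH1, covered XII:899223-899523 by the snoRNA gene SNR34.

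**Figure D1:**
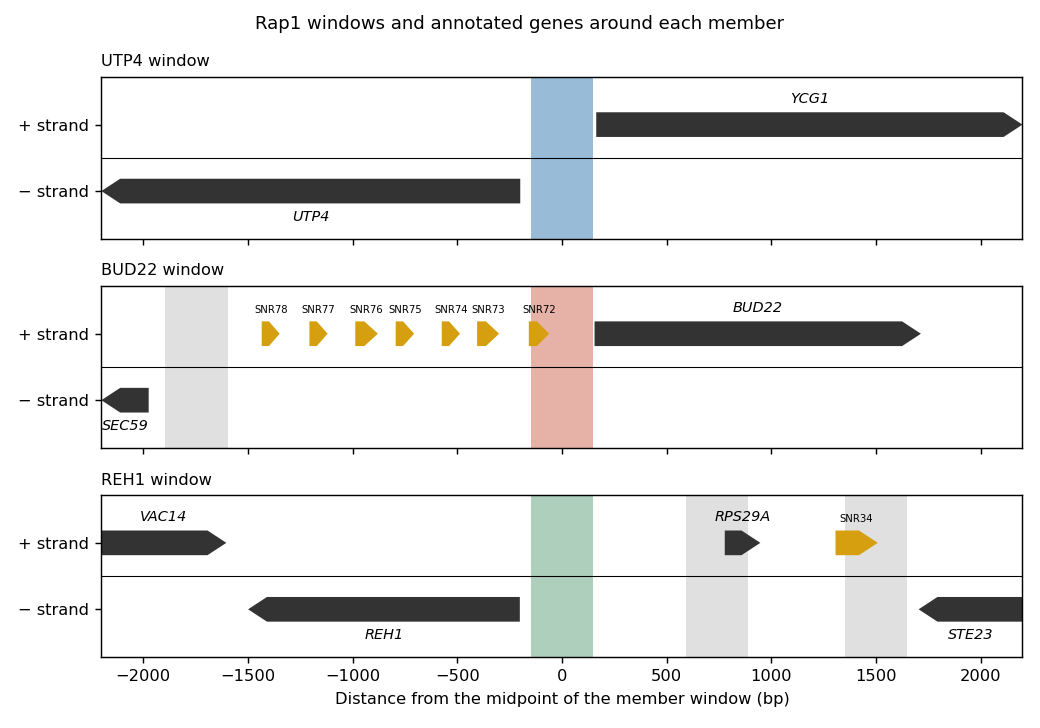
Position of the UTP4 (blue), BUD22 (red) and REH1 (green) windows and of other Rap1 windows (grey) against protein-coding genes (black) and snoRNA genes (orange) on each strand, in bp from the midpoint of the named window, with arrows giving the direction of each gene. The UTP4 window lies between 2 divergent genes, and the BUD22 window touches the end of a run of 7 snoRNA genes.

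Before rapamycin the promoters stood in the order BUD22, UTP4, REH1. The BUD22 window had a 0 min signal of 2007 ± 336 (SD, n = 2), the 47th highest mean of the 1118 windows. UTP4 had 821 ± 147 and rank 132, and REH1 had 537 ± 149 and rank 193. The median window had 96.7 in replicate 1 and 142 in replicate 2. Replicate 2 was higher at 0 min at all of these, by 1.27 times at BUD22, 1.29 times at UTP4, 1.49 times at REH1 and 1.47 times at the median window. Loss was therefore read within each isolate. Relative to input on the same spike-in scale, the ChIP signal at 0 min was 10.7 and 6.50 at BUD22, 3.04 and 2.36 at UTP4, and 2.26 and 1.42 at REH1 (replicates 1 and 2), which keeps the same order. The median window stood at 0.532 and 0.359 on that measure.

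The libraries held 4397759 to 9219038 S. paradoxus reads and between 1201827 and 3401521 reads in windows. The median window took 99 to 718.5 reads per library. The 3 promoters were read more deeply, with 349 to 5253 reads at UTP4, 634 to 3582 at REH1 and 2701 to 12958 at BUD22. At the fewest reads, all in replicate 1 at 30 min, counting error came to 5.35% at UTP4, 3.97% at REH1 and 1.92% at BUD22. PCR copies are not independent molecules, so these figures cover counting error only.

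At UTP4 the signal in replicate 1 was 717 at 0 min, 714 at 5, 378 at 10, 159.8 at 15, 104 at 20, 79.4 at 30, 57.5 at 45 and 47.9 at 60 min. In replicate 2 it was 925, 859.8, 457, 166, 113, 88.0, 58.7 and 70.1 at the same times. The isolates gave the same shape: nearly level for 5 min, a steep fall between 5 and 15 min, and a slow decline after that. What was left at 10 min was 52.6% of the 0 min signal in replicate 1 and 49.4% in replicate 2. By 20 min it was 14.5% and 12.3%, and at 60 min 6.68% and 7.57%.

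BUD22 followed another course. Replicate 1 had a signal of 1769 at 0 min, 1925 at 5, 1356 at 10, 881 at 15, 765 at 20, 614 at 30, 662 at 45 and 632 at 60 min. Replicate 2 had 2245, 2285, 1507, 923, 786, 691, 658 and 835. Most of the loss came between 5 and 15 min, as at UTP4, but it came to rest far higher. From 20 to 30 min the window kept 84.1 ± 5.31% of its signal (SD, n = 2), where the median window kept 105.4%. From 20 to 60 min BUD22 kept 94.4 ± 16.6%, or 82.6% in replicate 1 and 106.2% in replicate 2. The median window kept 73.2 and 108.6% over that span, so the rise in replicate 2 was seen there too. At 60 min 35.7% and 37.2% of the 0 min signal was left.

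REH1 fell more slowly at first, with 79.6 and 81.8% of its 5 min signal kept at 10 min, where BUD22 kept 70.4 and 66.0% and UTP4 52.9 and 53.2% (replicates 1 and 2). In replicate 1 its signal was 432 at 0 min, 500.3 at 5, 398 at 10, 299 at 15, 241 at 20, 144 at 30, 112 at 45 and 142 at 60 min. Replicate 2 gave 642, 632, 518, 335, 264, 156, 137 and 176. At 10 min 92.3% and 80.6% was still left, against 76.6% and 67.1% at BUD22 and 52.6% and 49.4% at UTP4. Between 20 and 30 min the REH1 window kept 59.5 ± 0.60% of its signal, where UTP4 kept 77.0% and BUD22 84.1%. The median window kept 105.4%, but its mean signal was already down to 21.3 at 20 min. At 60 min 32.9% and 27.4% of the starting signal was left, which overlaps neither UTP4 nor BUD22 in either isolate. Both isolates read higher at 60 than at 45 min, with 127.5 ± 0.55% of the 45 min value, where UTP4 had 101.3 ± 25.4% and BUD22 111.1 ± 22.2%. In replicate 2 this rise was shared, with 112.0% at the median window, 119.3% at UTP4, 126.9% at BUD22 and 128% at REH1. Only in replicate 1 did REH1 stand apart, at 127% against 73.5% at the median window, 83.3% at UTP4 and 95.4% at BUD22.

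**Figure D2:**
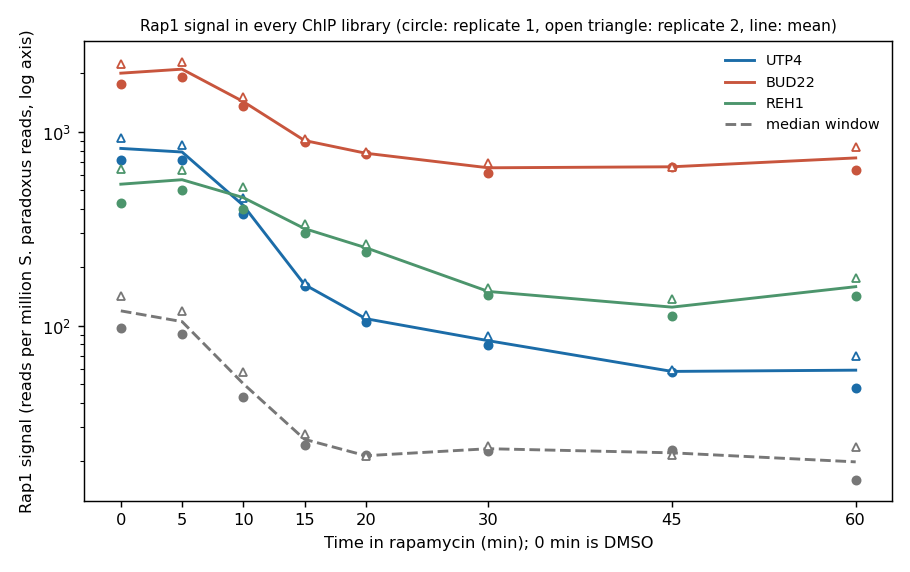
Spike-in scaled Rap1 signal (log axis) against minutes in rapamycin at the UTP4, BUD22 and REH1 windows and at the median window, with 1 point per strain isolate and lines through the mean. UTP4 crosses below REH1 during the course and ends at 47.9 and 70.1, while the lowest value of BUD22 is 614.

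The time at which 50% of the 0 min signal was left, read by straight lines between time points, was 10.4 and 9.93 min at UTP4, 15.0 and 13.3 min at BUD22, and 22.6 and 15.96 min at REH1 (replicates 1 and 2). The median window reached it at 10.1 and 9.57 min. UTP4 thus kept pace with the median window over the first 10 min and passed below it later. By the share left, 595 of the 1118 windows kept less than UTP4 at 10 min, 182 at 20 min (122 in replicate 1 alone and 326 in replicate 2 alone) and 41 at 60 min. BUD22 held its place, with 857, 867 and 914 windows keeping less at those times. REH1 moved down the order, from 995 windows at 10 min through 935 at 20 min to 841 at 60 min.

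The median window is a weak one, and its signal lay between 16.02 and 23.9 in every library from 30 min on. Each promoter was therefore also set beside the windows whose 0 min signal was 0.5 to 2 times its own, a comparison chosen after the data had been seen. UTP4 kept 7.12% at 60 min, against a median of 31.3% (quartiles 16.1 and 50.8%) over 189 such windows, of which 11 kept less. It stood low among them already at 10 min, with 51.0% left against 79.1%. BUD22 kept 36.5%, against 40.4% over 85 windows, of which 37 kept less. REH1 kept 30.2%, against 25.5% over 212 windows, of which 120 kept less. By starting signal, then, BUD22 and REH1 ended inside the quartiles of their like and UTP4 below them.

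**Figure D3:**
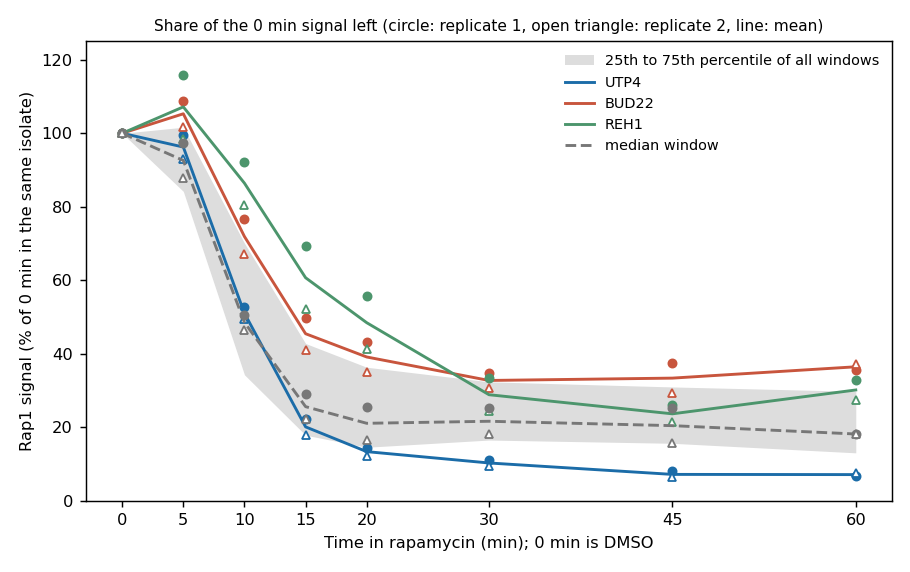
Percent of the 0 min signal left against minutes in rapamycin, for the UTP4, BUD22 and REH1 windows and the median window, with 1 point per isolate, lines through the mean and a grey band from the 25th to the 75th percentile of all windows. At 10 min the order from low to high is UTP4, BUD22, REH1, and at 60 min UTP4 ends at 6.68 and 7.57% while BUD22 and REH1 end between 27.4 and 37.2%.

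The promoters were not picked on the libraries at 5 and 45 min, but these stood near those at 0 and 60 min. At 5 min 96.2, 105.3 and 107.2% of the 0 min signal was left at UTP4, BUD22 and REH1. At 45 min it was 7.18, 33.4 and 23.7%, beside 7.12, 36.5 and 30.2% at 60 min. Tests on the 5 and 45 min libraries are therefore not independent of the choice. Between them the log2 signal was lower at 45 min by limma at UTP4 (-3.73, adjusted p = 3.34e-40), at BUD22 (-1.67, adjusted p = 1.33e-09) and at REH1 (-2.17, adjusted p = 3.73e-15), where the adjusted p runs over all 1118 windows. The standard error was 0.27 at each, because limma's estimate of the spread was the same for every window. With 2 isolates a time, the p-values rest on that shared spread and not on the spread between isolates at these promoters. With the isolate as a block, the limma adjusted p was 5.05e-22 at UTP4, 4.03e-11 at BUD22 and 1.53e-14 at REH1. A fall was the rule: 95.3% of windows were lower at 45 than at 5 min, with a median log2 change of -2.11, so passing the test does not set these promoters apart. The sizes did differ, since 8 windows had a larger fall than UTP4, 504 than REH1 and 828 than BUD22. Scaling each library to its own total in windows in place of the spike-in moved the median change up by 1.27 on the log2 scale, to -0.84, and left UTP4 at -2.43, REH1 at -0.87 and BUD22 at -0.36 (limma adjusted p = 0.0244 at BUD22).

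Whether the promoters lost Rap1 unequally was tested on ratios taken within each library, in which the spike-in scaling cancels. The 6 libraries at 20, 30 and 45 min were set against the 6 at 5, 10 and 15 min, by a 2-sided exact permutation test whose smallest possible p is 0.00216, adjusted over 6 ratios. Each group pools different times of the same 2 isolates, so the libraries are not replicates of a condition. The SDs and p-values mix the trend over time with the spread between isolates. From 5 to 45 min the isolates differed by an SD of only 0.0087 to 0.088 at one time in the UTP4 to BUD22 log2 ratio. The log2 ratio of UTP4 to BUD22 averaged -3.10 ± 0.32 late and -1.89 ± 0.48 early (SD, n = 6 each), a difference of -1.21 (exact permutation p = 0.00216, adjusted p = 0.00649), and the late and early libraries did not overlap. On the linear scale UTP4 had 0.409 of the BUD22 signal at 0 min and 0.0798 of it at 60 min.

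UTP4 also fell against REH1. Their log2 ratio was -1.05 ± 0.19 late and -0.20 ± 0.65 early, a difference of -0.85 (exact permutation p = 0.0195, adjusted p = 0.0390), with overlap between late and early libraries. The overlap lay in the 15 min libraries, where the log2 ratio had already fallen to -0.90 and -1.01. The call is a narrow one, since it was lost once the isolate entered as a replicate block (exact permutation, adjusted p = 0.05) and on leaving out either isolate at 5, 10, 20 or 45 min (difference -1.01 to -0.71 over all 12 libraries left out in turn). UTP4 had 1.55 times the REH1 signal at 0 min, 0.916 times at 10 min, 0.430 times at 20 min and 0.368 times at 60 min, so that the order of these 2 promoters turned round early in the course. REH1 against BUD22 did not pass the test, at -2.05 ± 0.37 late and -1.69 ± 0.19 early (difference -0.36, exact permutation p = 0.0584, adjusted p = 0.0877). That ratio was not a steady one, since REH1 stood at 0.265 of BUD22 at 0 min, 0.351 at 15 min, 0.189 at 45 min and 0.218 at 60 min.

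Against the median window of the same library, UTP4 had a log2 ratio of 1.86 ± 0.43 late and 2.88 ± 0.20 early, a difference of -1.01 (exact permutation p = 0.00216, adjusted p = 0.00649), with no overlap. BUD22 stood at 4.97 ± 0.18 late and 4.77 ± 0.37 early (difference 0.20, adjusted p = 0.335 by the same exact test). REH1 stood at 2.92 ± 0.53 late and 3.08 ± 0.53 early (difference -0.16, adjusted p = 0.597, exact test). Both of these depend on which windows give the median. Against windows of like 0 min signal BUD22 gave -0.14 (adjusted p = 0.177) and REH1 -0.23 (adjusted p = 0.0325), by the exact test. Against the 1077 windows with a 0 min signal of at least 50, also chosen after the data had been seen, BUD22 gave 0.20 (adjusted p = 0.309) and REH1 -0.16 (adjusted p = 0.595).

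**Figure D4:**
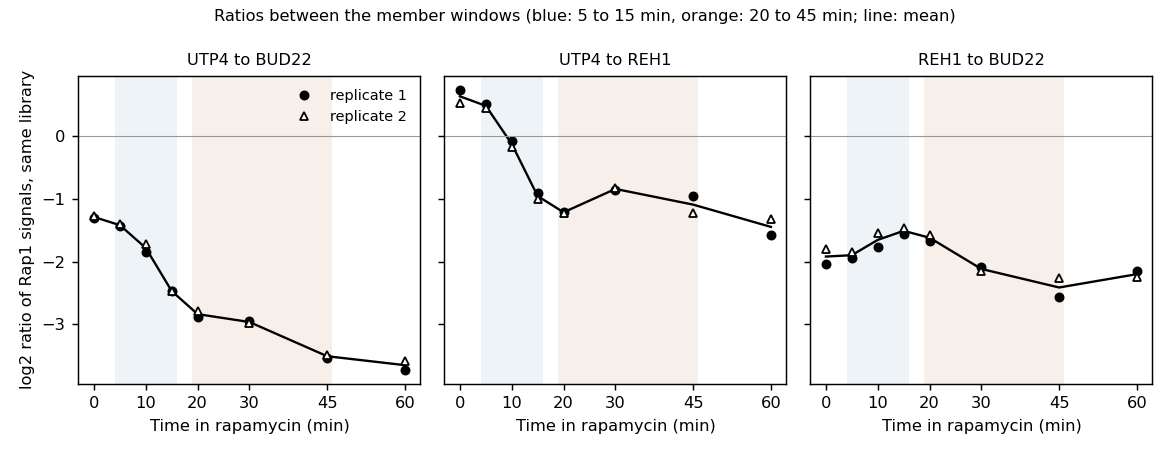
Log2 ratio of the signals of a pair of windows in the same library, against minutes in rapamycin, with 1 point per isolate, a line through the mean, and shading over the early (5 to 15 min, blue) and late (20 to 45 min, orange) libraries of the test. UTP4 to BUD22 is lower in every late library than in any early one, while for UTP4 to REH1 and REH1 to BUD22 the late and early libraries overlap.

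An exponential fall to a plateau was fitted to each window and isolate, and the inverse of its rate is called the apparent residence time here. It was 12.5 and 11.5 min at UTP4, with fitted plateaus of 1.49 and 1.72% of the 0 min signal. BUD22 gave 14.8 and 12.04 min with plateaus of 29.7 and 27.7%, so it differed from UTP4 in the level it settled at far more than in the time to reach it. REH1 gave 25.6 and 18.0 min with plateaus of 13.5 and 15.7%. Every plateau lay below the lowest share seen in its isolate, which at REH1 was 25.9 and 21.4%, at 45 min. The fitted starts lay above the 0 min signal, at 109.7 to 115.6% of it. Without the 0 min library the plateaus were 7.27 and 6.44% at UTP4, 34.8 and 31.3% at BUD22, and 25.6 and 21.1% at REH1. The plateaus are thus not levels that the windows were seen to reach. Over the 1016 windows that could be fitted the median was 9.50 min (quartiles 8.39 and 12.5), and 729 of them had a shorter time than UTP4, 795 than BUD22 and 974 than REH1. The standard errors of the combined values, 11.997, 13.3 and 21.45 min, were 2.72, 3.90 and 7.11 min, and the interval between UTP4 and BUD22 lies within them. With the plateau fixed at 0 the times were 12.4 min at UTP4, 30.7 min at BUD22 and 29.3 min at REH1, so only that of UTP4 was little changed.

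The windows whose course was nearest to that of each promoter were found by the root mean square difference of log2 change from 0 min, over 14 libraries and 1076 windows. For UTP4 these were the windows of CMS1 (0.100), of CIA2, a gene of cytosolic iron-sulfur assembly (0.143), and of HSF1 and MPS2 (0.143). BUD22 was nearest to FDO1 (0.0804), to a window with no ORF start within 500 bp at XII:234562-234862 (0.117) and to RPL33B (0.144). REH1 was nearest to the windows of RPL27A with TDA3 (0.0994), RPL31A with RXT3 (0.110) and RPL28 (0.111). The isolates of one promoter lay farther apart than this, at 0.228 for UTP4, 0.230 for BUD22 and 0.341 for REH1. That distance includes shifts of a whole library, which cancel between windows of the same library, so it is not a like measure. Whether the order among near windows is resolved was not tested. Between the promoters the distance was 0.325 for BUD22 and REH1, 1.51 for UTP4 and REH1 and 1.56 for UTP4 and BUD22.

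The SEC59 window, across the snoRNA genes from that of BUD22, kept 61.7 and 58.1% of its signal at 60 min. RPS29A, beside REH1, kept 28.0 and 25.8%, near to the 32.9 and 27.4% of REH1, from a 0 min signal of 67.6 and 109. It had reached 50% by 13.8 and 11.7 min, earlier than REH1 in each isolate. The window by SNR34 kept 27.3 and 28.0%, from a 0 min signal of 67.3 and 105, and reached 50% at 11.3 and 9.59 min.

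The promoters were also placed within a list of 199 genes for ribosome biogenesis and for RNA polymerases I and III, of which 196 were found in the annotation. The list had 19 windows, including the 3 above. At 10 min 9 of the 19 windows had lower signal than at 0 min by limma and none had higher, where 73.1% of all windows were lower. Without the 3 promoters, whose 0 min signals were used to choose them, it was 8 of 16. The list's median log2 change was -0.54, against -1.02 over all windows. Among the 1077 windows with a 0 min signal of at least 50, 72.6% were lower at 10 min, but this filter keeps nearly all windows. Among the 548 windows with a mean signal of at least 50 over all times, 46.5% were lower, near the 47.4% of the list. The loss itself affects that second filter. The list was not put through it, so those shares come from unlike sets. Whether the smaller share called in the list goes with signal strength was not tested. UTP4 alone of the 3 promoters had a fall near the median of all windows (-0.97, against -0.48 at BUD22 and -0.21 at REH1).

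By 45 min all 19 windows of the list had lower signal than at 5 min, where 95.3% of all windows did, with a median of -2.34 against -2.11. At 60 min all 16 windows of the list other than the 3 promoters were lower than at 0 min, where 96.0% of all windows were. The share left then ran from 6.93% at CMS1 to 58.7% at RPA43, a subunit gene of RNA polymerase I, with a median of 16.1% against 18.1% over all windows. UTP4 stood beside CMS1 and NSR1 (7.68%, the yeast nucleolin) at the low end. At the high end BUD22 came next after RPA43 and BUD20 with RPL10 (56.3%), a promoter shared with a ribosomal protein gene. By 0 min signal BUD22 led the list, followed by SRP40, a nucleolar chaperone gene, at 861 and UTP4 at 821. Scaled to library totals, the list had 7 lower and 1 higher at 10 min, where 65.0% of all windows were lower and 80 were higher. For 45 against 5 min it had 17 lower and 2 higher on that scale, where 77.0% of all windows were lower and 112 were higher.

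**Figure D5:**
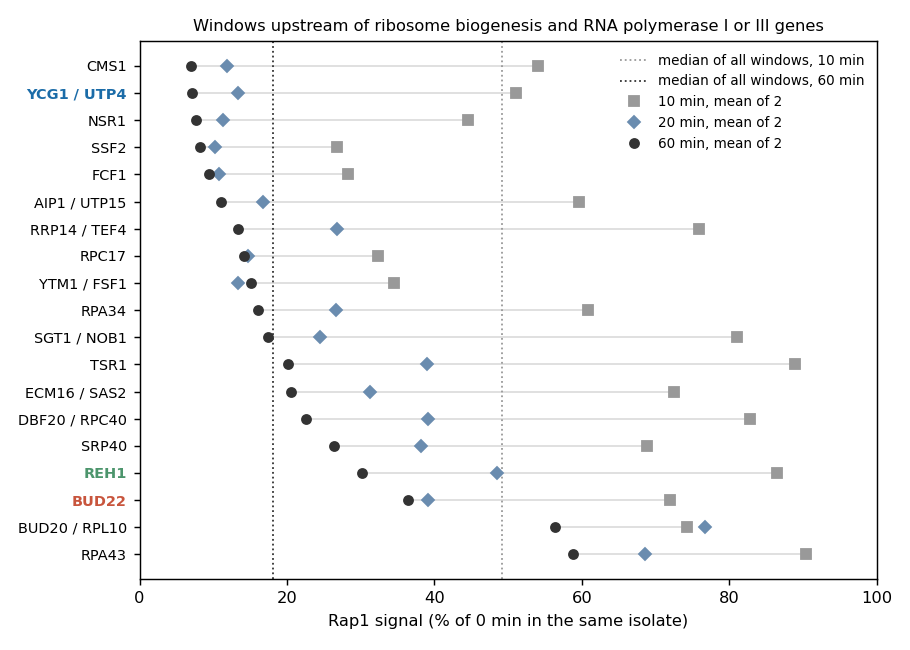
Percent of the 0 min signal left at 10 min (squares), 20 min (diamonds) and 60 min (circles), mean of 2 isolates, for the 19 windows of the ribosome biogenesis list, ordered by the share left at 60 min, with the median of all windows at 10 and 60 min as dotted lines. UTP4, at 7.12%, is next to the lowest at 60 min, and REH1 and BUD22, at 30.2 and 36.5%, are near the other end.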

How the data were processed

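Rap1 was immunoprecipitated through V5 and sequenced together with the S. paradoxus spike-in. Per the labels and the methods, the authors aligned reads with Bowtie2, used SAMtools, called summits with MACS3 against a no-tag control and deposited the signal as reads within 150 bp of a summit per 1000000 S. paradoxus reads. The deposited S. paradoxus reads per library are counts with rDNA left out. A value multiplied by its library's count gave whole reads within 0.01 for 100% of values. The signal was nonetheless tested as a scaled signal.

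Of the deposited columns, 14 of other inputs and 14 rows of other libraries were not used, and 1 line was no window. Gene positions came from the RefSeq R64 annotation, and strand from the locus tag. Log2(signal + 1) was fitted with limma 3.58.1 in R 4.3.3, with time as a factor over 16 libraries, and p-values were adjusted by Benjamini-Hochberg over 1118 windows at 0.05. Ratios were tested with scipy 1.17.1. The fits were tested on simulated data. Named windows were the 3 nearest in course, and in the list the 3 highest, the 3 with the largest and the 3 with the smallest falls. The members, lists and tests were chosen with earlier results of these data known.

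Equal replicate numbers pair the libraries, since per the labels each number is 1 strain isolate. Deviations from the time means correlated by -0.21 to 0.41 (median 0.17) over 28 pairs of times. Alternatives were the pseudocount, a signal filter, total scaling, the replicate block, other time groups and leaving out libraries. No DNA sequence of the windows was used here.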

Additional observations from a re-analysis of the deposited data

How the results depend on the processing

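Of 99 alternatives of the ratio tests, 85 kept direction and side of the threshold, 9 lost the call, 4 gained one and 1 turned sign. Of 49 alternatives of values with no test of their own, 37 moved little and 12 moved further. The 37 include every case of leaving out an isolate for residence time or percent left. There the yardstick was the SD of the same 2 isolates, which made that outcome all but certain, so those cases say nothing about stability. The UTP4 to BUD22 difference (-1.33 to -1.11 on leaving out libraries in turn) and the UTP4 to median difference (-1.12 to -0.91) passed under every alternative run. For both, the late and early libraries did not overlap. Leaving out any library, or adding the replicate block, could then only give the smallest possible p. Those passes, counted among the 85, therefore say nothing about stability. UTP4 to REH1 (-1.01 to -0.71) missed the threshold with the replicate block, at -0.85 (adjusted p = 0.05). The block changed no other call. REH1 to BUD22 (-0.46 to -0.26) passed for 5 and 10 against 30 and 45 min, at -0.49 (adjusted p = 0.0429), and without 20 min replicate 2, at -0.46 (adjusted p = 0.0433), both by the exact permutation test. BUD22 to the median (0.09 to 0.28) passed at 0.22 against windows with a mean signal of at least 50 over all times, a filter that the loss itself affects (0.20, adjusted p = 0.309 by the exact test, with the filter at 0 min), and turned to -0.14 against windows of like 0 min signal, where REH1 (-0.31 to -0.04 on leaving out libraries) passed at -0.23; the like-signal median and the filter at 0 min were chosen after seeing the data. The cause was not tested for any of these.

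The filter at a mean signal of 50 left 548 windows, so that 255, 505 and 498 were lower at 10 against 0, 60 against 0 and 45 against 5 min. Leaving out libraries gave 601 to 910, 1023 to 1093 and 1028 to 1071. Total scaling called 80, 130 and 112 windows higher, beside 727, 862 and 861 lower. Residence times per isolate were 11.5 to 12.5 min at UTP4, 12.04 to 14.8 at BUD22 and 18.0 to 25.6 at REH1. They moved to 6.12, 6.54 and 11.98 min without the 0 min library, to 30.7 min at BUD22 and 29.3 min at REH1 with a plateau of 0, and to 15.4 min at UTP4 with total scaling. Under total scaling BUD22 could not be fitted in either isolate, nor REH1 in replicate 2, so neither has a combined time there. The percent left at 60 min (6.68 to 7.57 at UTP4, 35.7 to 37.2 at BUD22, 27.4 to 32.9 at REH1) became 18.6, 95.1 and 78.2 with total scaling, by construction relative to the falling total.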
